A study of Homo sapiens with 6 samples.

Results

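The 10 genes described here encode antioxidant enzymes and suppliers of NADPH that work in or around the mitochondria of steroid-making cells: NNT, PRDX3, TXN2, TXNRD2, TXNRD1, SRXN1, SOD2, GPX4, GCLM and CAT. They were chosen by name, and every probe set that the platform annotation maps to them was taken. This gave 25 of the 54613 probe sets on the array, 21 annotated to a single member and 4 that list SOD2 together with SOD2-OT1, among 19775 genes in all. A probe set is the group of short oligonucleotides on an array that reports 1 transcript or a few related ones. The cells were H295R/TR SF-1, a line derived from the human adrenocortical carcinoma line H295R in which doxycycline turns on the nuclear receptor SF-1, encoded by NR5A1. Total RNA was measured on 6 arrays after 72 h of culture, 3 labelled as treated with doxycycline at 1 µg/mL (Dox) and 3 labelled as kept in basal conditions. Both groups carry the same inducible SF-1 construct and differ only in doxycycline, and the arrays of a label are described as biological replicates. Arrays are numbered within a label in order of deposition, and the numbers were not used to pair arrays. The titles of Dox 1 and basal 1 name the treatment in full, whereas the other 4 titles are codes, which is called the label style. All values are log2 signals or differences between log2 signals.

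As background, each round of steroid hydroxylation in the mitochondrion draws electrons from NADPH through adrenodoxin reductase and adrenodoxin to a cytochrome P450, and some of these electrons escape to oxygen. The superoxide formed is converted to hydrogen peroxide, which PRDX3 removes at the cost of its own oxidation. TXN2 reduces PRDX3, TXNRD2 reduces TXN2, and the NADPH that TXNRD2 consumes comes in part from NNT. Glutathione and its peroxidases form a parallel route. Inherited loss of NNT or TXNRD2 causes familial glucocorticoid deficiency, in which the adrenal cortex fails to answer ACTH.

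Several facts about the arrays bear on every value below. Dox 1 and basal 1 were nearly identical although their labels differ, with an SD of 0.13 over all probe sets for their difference and 0 probe sets more than 2-fold apart, and so were Dox 2 and basal 3 (SD 0.15, 0 probe sets). Every other pair of arrays had an SD of 0.26 to 0.46. Dox 3 and basal 2 were the arrays with the smallest spread, with an SD over probe sets of 2.36 to 2.37 against 2.43 to 2.44 on the other 4. NR5A1 itself read 5.55, 6.21 and 6.41 in Dox 1, 2 and 3, against 5.84, 5.92 and 6.30 in basal 1, 2 and 3, a difference of 0.03 ± 0.24 (SE; exact permutation test, two-sided, p = 1). The signal of this gene, read from its brightest probe set, therefore did not separate the labels. It was above its array's median on 5 of 6 arrays, and the array medians were 5.56 to 5.596. Whether the probe set reports RNA made from the inducible construct was not tested. The paper describes SF-1 overexpression after doxycycline in these cells, shown by immunoblot, and protein was not measured on the arrays. It also reports genes raised and lowered by SF-1 overexpression on arrays, chosen by a 2-fold change together with a significance cut-off. A rule of that form, without adjustment for multiple testing, called 0 of 54613 probe sets on the 6 arrays as labelled. The paper's changes were thus not recovered with these labels, and the reason was not tested. Whether a label was exchanged, or an RNA was measured under both labels, was not tested, and each Dox minus basal value below holds for the arrays as labelled. Of 14 adrenocortical markers measured, 8 lay above the array median on all 6 arrays and 3 (CYP11B1, INHA and MLANA) below it on all 6, with a mean level of 8.29 to 8.59 in Dox arrays and 8.33 to 8.76 in basal arrays. Among 7 markers of the adrenal medulla, PNMT, CHGA, CHGB and SYP lay above the median on all 6 arrays and TH, DBH and SLC18A1 below it (mean level of the list 5.62 to 5.84 in Dox arrays, 5.72 to 5.84 in basal arrays). Of 15 stromal, endothelial and blood markers, 5 lay above the array median on all 6 arrays and 8 below it on all 6. The 8 were COL1A2, LUM, VWF, CDH5, KDR, PTPRC, CD14 and MS4A1. The mean level of the list was 5.19 to 5.23 in Dox arrays and 5.15 to 5.26 in basal arrays. Because of the near-identical arrays, each comparison was made on all 6 arrays and again on 4, leaving out either Dox 1 and basal 3 or Dox 2 and basal 1, the only ways to drop 1 array of each near-identical pair and keep 2 arrays per label. In the 4-array comparisons, membership of the set of Dox 3 and basal 2 entered as a block.

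None of the 25 probe sets of the 10 genes passed the test between Dox and basal arrays. Over all 6 arrays the 25 differences ran from -0.16 to 0.18, with a median of 0.01, beside a median of -0.0015 over all probe sets, and every adjusted p was 1 (limma). None of the 25 had an unadjusted p under 0.05. Across the whole array 0% of probe sets were called at an adjusted p under 0.05 (0 of 54613), and 373 had an unadjusted p under 0.05. The groups did not overlap in 1 of the 25 probe sets, a dim one for TXNRD2, beside 3.81% of all probe sets. RNA was taken from whole cultures, so a change in the make-up of a culture and a change per cell cannot be told apart. In an exact permutation test 3 against 3 arrays cannot give a p below 0.1.

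**Figure D1:**
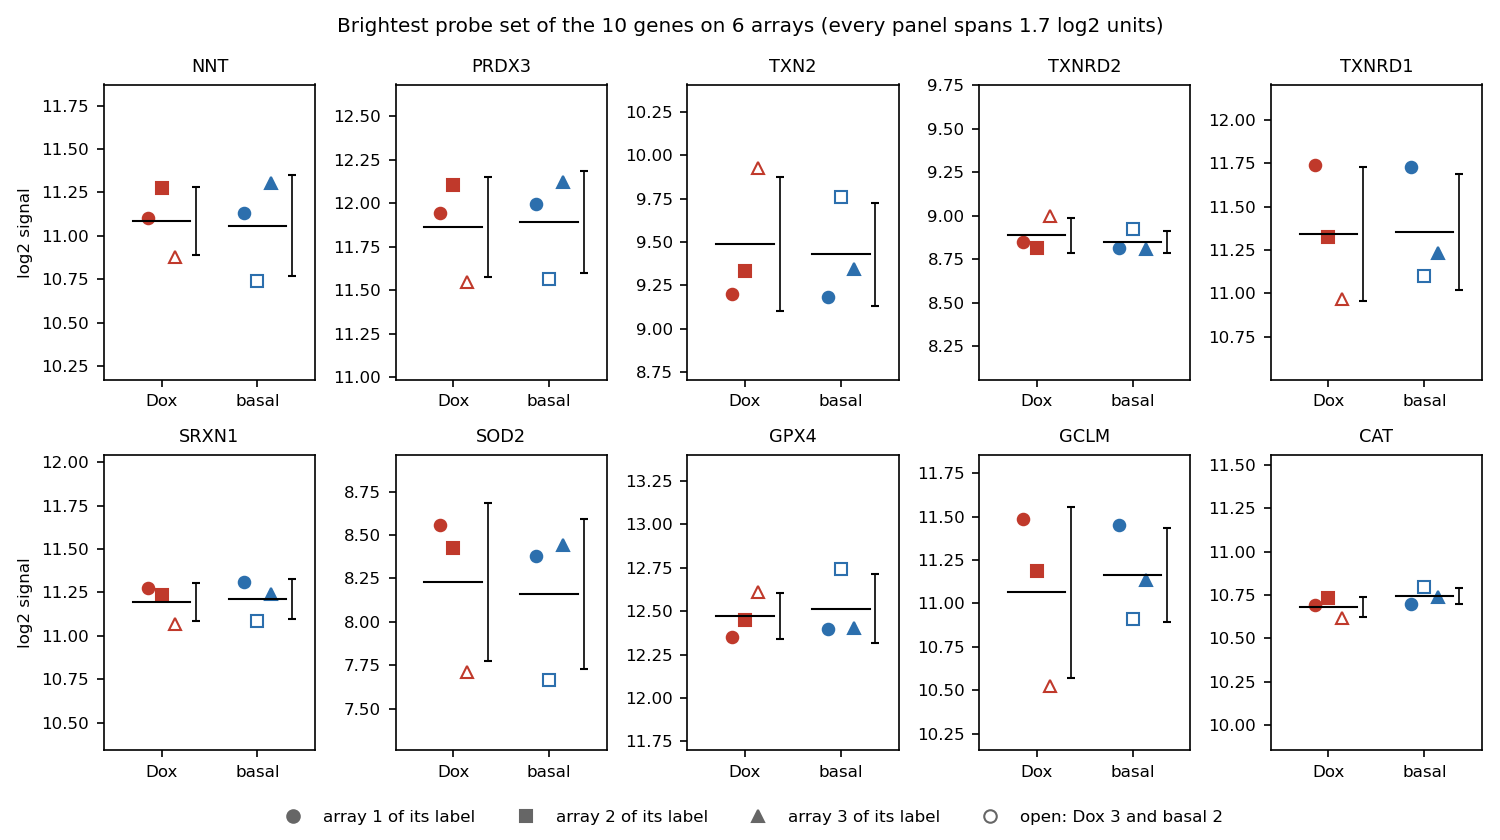
Log2 signal (vertical axis, 1.7 log2 units in every panel) of the brightest probe set of each gene in the 3 Dox arrays (left) and the 3 basal arrays (right); the symbol gives the array number, open symbols are Dox 3 and basal 2, and bars are mean and SD. The groups overlap in all 10 panels. The open symbols lie lowest for NNT, PRDX3, TXNRD1, SRXN1, SOD2 and GCLM, highest for TXN2, TXNRD2 and GPX4, and neither for CAT.

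NNT, the inner-membrane transhydrogenase that uses the proton gradient to pass hydride from NADH to NADP+, was the NADPH source among the members, and lies on chromosome 5. Its brightest probe set, 202783_at, read 11.11, 11.27 and 10.88 in Dox 1, 2 and 3, against 11.13, 10.74 and 11.30 in basal 1, 2 and 3. The lowest array of each label was Dox 3 or basal 2, and the groups overlapped throughout. The difference was 0.03 ± 0.18 (SE), with a 95% interval of -0.39 to 0.45 (exact permutation p = 1). A second NNT probe set, 202784_s_at, gave 9.47, 9.79 and 9.21 in Dox arrays, against 9.59, 9.27 and 9.81 in basal arrays, in nearly the same order of arrays. The third, 238530_at, differed by 0.02 ± 0.18, and the dim 244531_at, below the array median on all 6 arrays, by 0.18 ± 0.13. Without Dox 1 and basal 3 the NNT difference of 202783_at was 0.14 ± 0.09 (adjusted p = 0.591), and without Dox 2 and basal 1 it was -0.03 ± 0.15 (adjusted p = 1).

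No label difference was detected in the peroxide-removing chain that NADPH feeds either, though the intervals given leave room for changes in both directions. Those intervals come from the 6-array fit with no block, so they include the distance of Dox 3 and basal 2 from the other arrays. With that set as a block, the SE was 0.07 for PRDX3 201619_at, 0.09 for TXN2 209077_at and 0.07 for TXNRD2 211177_s_at. No member passed in that fit either. PRDX3, the peroxiredoxin of the matrix, read 11.94, 12.10 and 11.55 in Dox 1, 2 and 3, against 11.99, 11.56 and 12.12 in basal 1, 2 and 3 (201619_at). Dox 3 and basal 2 were the low arrays, as they were for NNT. The PRDX3 difference was -0.03 ± 0.20, with an interval of -0.49 to 0.43 (exact permutation p = 0.7). Its dimmer probe set 209766_at lay below the array median throughout and differed by -0.08 ± 0.12.

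TXN2, the mitochondrial thioredoxin that returns electrons to PRDX3, ran the other way across arrays. Its probe set 209077_at read 9.20, 9.33 and 9.93 in Dox 1, 2 and 3, against 9.19, 9.76 and 9.34 in basal 1, 2 and 3. Here Dox 3 and basal 2 were the highest array of their label, and the groups overlapped. The TXN2 difference was 0.06 ± 0.24 (interval -0.50 to 0.62, exact permutation p = 0.7), and the second probe set, 209078_s_at, differed by -0.01 ± 0.16.

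TXNRD2, the mitochondrial thioredoxin reductase, varied little. Its brighter probe set 211177_s_at read 8.85, 8.81 and 9.001 in Dox arrays, against 8.82, 8.92 and 8.81 in basal arrays, a difference of 0.04 ± 0.12. Its dimmer probe set 210803_at was the only member probe set whose groups did not overlap, at 5.72, 5.68 and 5.76 in Dox 1, 2 and 3, against 5.53, 5.54 and 5.66 in basal 1, 2 and 3. The difference of 0.14 ± 0.10 had an exact permutation p of 0.1, the smallest possible, and an adjusted p of 1. These values are close to the array medians of 5.56 to 5.596, and the signal was above its array's median on 4 of 6 arrays.

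SRXN1, sulfiredoxin, repairs peroxiredoxins that have been oxidised past the point where thioredoxin can act. It had 1 probe set, 225252_at, at 11.28, 11.24 and 11.07 in Dox 1, 2 and 3, against 11.31, 11.09 and 11.24 in basal 1, 2 and 3. The range over all 6 arrays was 0.24, and the difference was -0.02 ± 0.11 (interval -0.29 to 0.25, exact permutation p = 0.7).

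SOD2, the manganese superoxide dismutase that produces the peroxide PRDX3 removes, had 1 probe set to itself, 1566342_at. It read 8.56, 8.43 and 7.71 in Dox 1, 2 and 3, against 8.38, 7.66 and 8.44 in basal 1, 2 and 3. Dox 3 and basal 2 were the low arrays, and the groups overlapped. The SOD2 difference was 0.07 ± 0.30 (interval -0.63 to 0.77, exact permutation p = 0.6). The 4 probe sets that list SOD2 with SOD2-OT1 cannot be given to either gene alone, and they differed by -0.11 ± 0.14 (215223_s_at), 0.01 ± 0.19 (216841_s_at), 0.08 ± 0.27 (221477_s_at) and 0.04 ± 0.08 (215078_at, below the array median on all 6 arrays).

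GPX4, the selenium-containing peroxidase that reduces lipid hydroperoxides with glutathione, was measured by 201106_at at 12.35, 12.45 and 12.61 in Dox 1, 2 and 3, against 12.40, 12.74 and 12.40 in basal 1, 2 and 3. Its highest array within each label was Dox 3 or basal 2. The GPX4 difference was -0.04 ± 0.13 (interval -0.34 to 0.25, exact permutation p = 0.8).

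GCLM, the modifier subunit of glutamate-cysteine ligase, the enzyme of the first step of glutathione synthesis, varied most over the arrays. Its brightest probe set, 203925_at, read 11.48, 11.18 and 10.52 in Dox 1, 2 and 3, against 11.45, 10.91 and 11.13 in basal 1, 2 and 3. A second probe set, 234986_at, read 10.71, 10.40 and 9.42 in Dox arrays, against 10.76, 9.24 and 10.51 in basal arrays, and spanned 1.52 log2 units. The third, 236140_at, gave 8.10, 7.75 and 7.005 in Dox arrays, against 7.98, 7.05 and 7.80 in basal arrays. All 3 probe sets placed Dox 1 and basal 1 highest, Dox 2 and basal 3 next, and Dox 3 and basal 2 lowest. By label, however, the GCLM differences were -0.10 ± 0.26 (interval -0.71 to 0.51, exact permutation p = 0.9), 0.01 ± 0.47 and 0.01 ± 0.34.

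TXNRD1, the cytosolic thioredoxin reductase, shared the high arrays of GCLM. Its probe set 201266_at read 11.74, 11.32 and 10.97 in Dox 1, 2 and 3, against 11.73, 11.10 and 11.23 in basal 1, 2 and 3. Dox 1 and basal 1 stood above the other arrays, and Dox 3 and basal 2 were the lowest of their label. The TXNRD1 difference was -0.01 ± 0.24 (interval -0.57 to 0.55, exact permutation p = 1). The other TXNRD1 probe set, 1561080_at, stayed between 2.25 and 2.88 and below the array median everywhere.

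CAT, the peroxisomal catalase, varied least among the brightest probe sets. Its probe set 201432_at read 10.69, 10.73 and 10.62 in Dox 1, 2 and 3, against 10.70, 10.80 and 10.74 in basal 1, 2 and 3, a range of 0.18. The CAT difference was -0.06 ± 0.10 (interval -0.30 to 0.18, exact permutation p = 0.2). The probe set 211922_s_at differed by -0.08 ± 0.14, and the dim 215573_at by -0.16 ± 0.12.

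The outcome for the members was the same in the 4-array comparisons, although these differed from each other for the array as a whole. Without Dox 1 and basal 3, 4.15% of all probe sets were called (2269 of 54613, limma with Benjamini-Hochberg adjustment), against 0 of the 25 member probe sets. An unadjusted p under 0.05 was found for 3 of the 25, beside 7528 of all 54613 probe sets. Those 3 were GCLM 203925_at at -0.33 ± 0.09 (adjusted p = 0.0775), TXNRD1 201266_at at -0.27 ± 0.10 (adjusted p = 0.185) and the dim NNT 244531_at at 0.34 ± 0.13 (adjusted p = 0.232). Without Dox 2 and basal 1, 0% of probe sets were called (0 of 54613, with 518 at an unadjusted p under 0.05), again with 0 of the 25 members, and GCLM 203925_at differed by -0.02 ± 0.21 and TXNRD1 201266_at by 0.19 ± 0.19. The 4-array comparisons share Dox 3 and basal 2 and rest on 1 residual degree of freedom from the arrays each. Beside these arrays, the first sets Dox 2 against basal 1 and the second Dox 1 against basal 3. Those differences cross the near-identical pairs in opposite directions, at -0.41 and 0.50 for TXNRD1 201266_at. Under a filter on dim probe sets, only those with a 6-array mean above the median of all values (5.58) were fitted. Without Dox 1 and basal 3, 2763 of 27274 probe sets then passed (limma). Of the 20 member probe sets kept, GCLM 203925_at alone passed there (adjusted p = 0.0337). It did not pass in the same comparison under the other alternatives run, where its adjusted p was 0.0537 to 1.

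**Figure D2:**
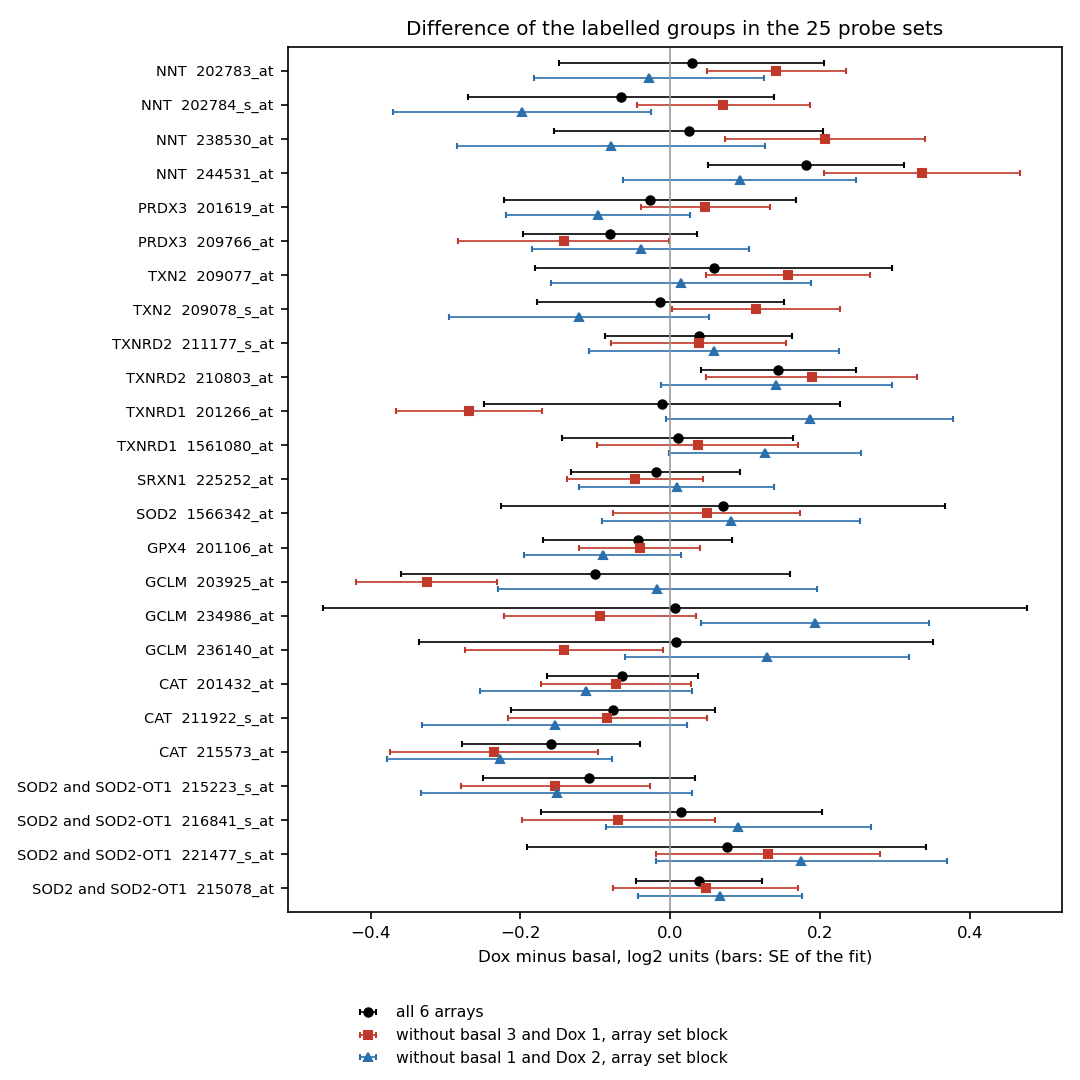
Dox minus basal in log2 units (horizontal axis) for the 25 probe sets, from all 6 arrays (black circles), without basal 3 and Dox 1 (red squares) and without basal 1 and Dox 2 (blue triangles); bars are the SE of each fit. The 6-array values lie between -0.16 and 0.18, and the 4-array values of TXNRD1 201266_at fall on opposite sides of 0 (-0.27 and 0.19).

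The near-identical pairs, which set 1 label directly against the other, were recognised from these data by their small differences. Small member differences within them follow from that choice and are no test of doxycycline. The members were also mostly bright, with 19 of 25 probe sets above the array median on all 6 arrays, beside 24830 of 54613. Dox 1 minus basal 1 had an SD of 0.10 over the 25 probe sets, and 1 of 25 differed by more than 0.2, beside 12.8% of all probe sets. That one was the dim NNT 244531_at, at 0.26. Dox 2 minus basal 3 also had an SD of 0.10, with 1 of 25 beyond 0.2 (the dim TXNRD1 1561080_at, at -0.32), beside 16.1% of all probe sets. GCLM 203925_at, the member closest to a call above, differed by 0.03 between Dox 1 and basal 1 and by 0.05 between Dox 2 and basal 3, and by -0.38 between Dox 3 and basal 2.

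Like the array as a whole, the members varied more between arrays than between labels. The set of Dox 3 and basal 2 holds 1 array of each label, and its distance from the 4 other arrays was described without a test, because the set was recognised from these data. Over the 25 probe sets this distance had a median size of 0.28, beside 0.20 over all probe sets, whereas the Dox minus basal difference had a median size of 0.04, beside 0.07 over all probe sets. The mean of Dox 3 and basal 2 minus that of the 4 others was -0.60, -1.26 and -0.88 log2 units for GCLM 203925_at, 234986_at and 236140_at, which is 1.51-fold, 2.40-fold and 1.84-fold lower. It was -0.76 for SOD2 1566342_at (1.697-fold lower), -0.49 for PRDX3 201619_at, -0.47 for TXNRD1 201266_at and -0.39 for NNT 202783_at. It was 0.58 for TXN2 209077_at (1.49-fold higher), 0.28 for GPX4 201106_at and 0.14 for TXNRD2 211177_s_at. In the peroxiredoxin chain, PRDX3 201619_at thus lay lower and TXN2 209077_at higher in these arrays, on the deposited values and under both scalings below. The dimmer PRDX3 209766_at ran the other way, at 0.18 as deposited and 0.14 under either scaling.

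Set against all probe sets, 5 of the 25 were at least 0.5 lower in Dox 3 and basal 2 with both arrays outside the range of the 4 others, where 8.05% of all probe sets were, and 1 of the 25 was higher by that rule, where 5.86% were. The 5 were the 3 GCLM probe sets, SOD2 1566342_at and 221477_s_at, which lists SOD2 with SOD2-OT1, and the 1 was TXN2 209077_at. After quantile normalization 23 of the 25 differences kept their sign, and after each array was centred on its median and scaled to a common interquartile range 21 did. SRXN1 gave -0.19 as deposited, -0.10 after quantile normalization and 0.10 on the centred and scaled values, and CAT 201432_at gave -0.01 as deposited, 0.07 after quantile normalization and 0.26 on the centred and scaled values. Centred and scaled, the distances of NNT 202783_at, PRDX3 201619_at, TXNRD1 201266_at and GCLM 203925_at were smaller, at -0.11, -0.16, -0.18 and -0.31. Of these, only PRDX3 201619_at still had both arrays outside the range of the 4 others. On the same values GCLM 234986_at was at -1.05, GCLM 236140_at at -0.80, SOD2 1566342_at at -0.65 and TXN2 209077_at at 0.79. GPX4 201106_at was at 0.65, against 0.28 as deposited.

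**Figure D3:**
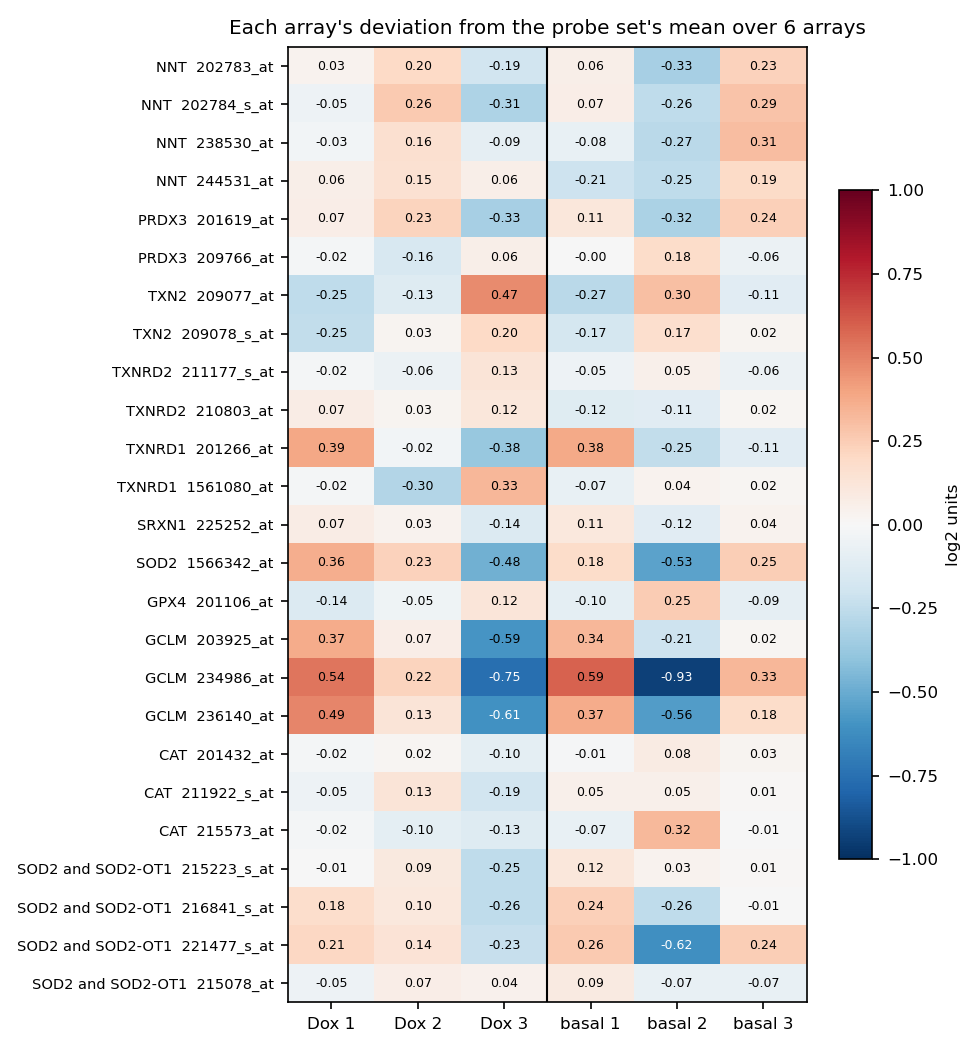
Deviation of each array (columns, Dox arrays left of the line and basal arrays right of it) from the mean of the 6 arrays for the 25 probe sets (rows), in log2 units, red above the mean and blue below it. The columns of Dox 3 and basal 2 are the most strongly coloured, with GCLM 234986_at at -0.75 and -0.93 and TXN2 209077_at at 0.47 and 0.30.

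GCLM, TXNRD1 and SRXN1 are known targets of NRF2, the transcription factor that binds the antioxidant response element and switches on thiol-protecting genes when its inhibitor KEAP1 is modified. Their promoter windows were therefore searched on both strands for the core of that element, TGACNNNGC, and for the SF-1 motif AAGGTCA. RefSeq (GRCh38.p14) gave 18 windows, each running from 250 bases before a start site to 50 after it, for 9 of the 10 members, and TXN2 was not matched. The core of the response element was in 3 of the 18 windows, 16.7%, beside 13.3% of all 35116 windows, and the SF-1 motif in 0 of 18, beside 3.92% of all. The 3 windows with the core belong to TXNRD1 and GCLM and are shown because they hold it, with each match in capitals. SRXN1 had no match, and all 3 genes were highest in Dox 1 and basal 1 by their brightest probe sets. A match is only a match of letters, and the absence of one says nothing about the factor.
TXNRD1, chr12:104215529-104215828, plus strand: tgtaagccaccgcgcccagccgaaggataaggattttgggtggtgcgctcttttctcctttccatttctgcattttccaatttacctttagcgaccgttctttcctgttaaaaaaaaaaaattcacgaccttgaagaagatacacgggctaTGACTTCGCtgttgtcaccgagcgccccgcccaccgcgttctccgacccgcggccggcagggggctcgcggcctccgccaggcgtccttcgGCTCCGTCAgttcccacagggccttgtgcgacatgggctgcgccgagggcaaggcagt
TXNRD1, chr12:104286782-104287081, plus strand: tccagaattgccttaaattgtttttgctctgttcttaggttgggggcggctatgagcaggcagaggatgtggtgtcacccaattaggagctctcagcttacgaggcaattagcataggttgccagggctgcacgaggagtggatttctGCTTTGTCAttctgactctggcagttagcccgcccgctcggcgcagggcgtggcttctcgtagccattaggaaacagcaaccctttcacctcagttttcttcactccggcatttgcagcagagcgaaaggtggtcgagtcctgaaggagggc
GCLM, chr1:93909381-93909680, minus strand: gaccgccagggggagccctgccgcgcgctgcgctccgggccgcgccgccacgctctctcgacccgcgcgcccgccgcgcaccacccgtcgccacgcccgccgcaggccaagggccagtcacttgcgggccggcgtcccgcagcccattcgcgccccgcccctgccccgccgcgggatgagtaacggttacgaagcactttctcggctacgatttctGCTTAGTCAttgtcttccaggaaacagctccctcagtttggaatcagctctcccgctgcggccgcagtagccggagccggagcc

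In the first TXNRD1 window the matches TGACTTCGC, on the gene's strand, and GCTCCGTCA, on the opposite strand, begin 99 and 8 bases before the start site. The second TXNRD1 window holds GCTTTGTCA, 102 bases before its start site and on the opposite strand. The GCLM window holds GCTTAGTCA on the opposite strand, 34 bases before the start site.

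In none of the companion lists below did a gene pass on all 6 arrays or without Dox 2 and basal 1, and 0 of their genes had an unadjusted p under 0.05 in either comparison (limma). All list calls below come from the comparison without Dox 1 and basal 3 with the array set as a block. There 6.43% of all 19775 genes passed. Outside Dox 3 and basal 2, it sets Dox 2 against basal 1, which belong to different near-identical pairs and differ in label style. A difference between those pairs cannot be told apart there from one between labels. With no block, or with the label style as the block, that comparison called 0 of 54613 probe sets, so each of these calls is lost. The lists had 3 of 22, 1 of 12, 2 of 14, 1 of 23, 1 of 25, 2 of 14, 2 of 9, 2 of 9 and 1 of 18 genes passing, in the order in which they follow, and no list was tested as a whole. Of 25 listed NRF2 pathway genes 22 were measured. Without Dox 1 and basal 3, 2 passed as lower in Dox and 1 as higher. NQO1, the quinone reductase often used as an NRF2 readout, read 10.85, 10.27 and 10.47 in Dox 1, 2 and 3, against 10.87, 11.38 and 10.23 in basal 1, 2 and 3. It was highest in basal 2, which is the low array of GCLM 234986_at. Its difference was -0.30 over 6 arrays, -0.76 ± 0.10 without Dox 1 and basal 3 (adjusted p = 0.00046) and -0.15 without Dox 2 and basal 1. BLVRB, which reduces biliverdin, gave -0.63 ± 0.10 without Dox 1 and basal 3 (adjusted p = 0.0018), and ME1, cytosolic malic enzyme, -0.37 ± 0.10 (adjusted p = 0.0544). AKR1B10, an aldo-keto reductase below the array median on all 6 arrays, gave 0.66 ± 0.15 (adjusted p = 0.0204). NRF2 itself, encoded by NFE2L2, did not pass there (-0.03 ± 0.09, adjusted p = 0.945), and KEAP1 had an adjusted p of 0.845.

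**Figure D4:**
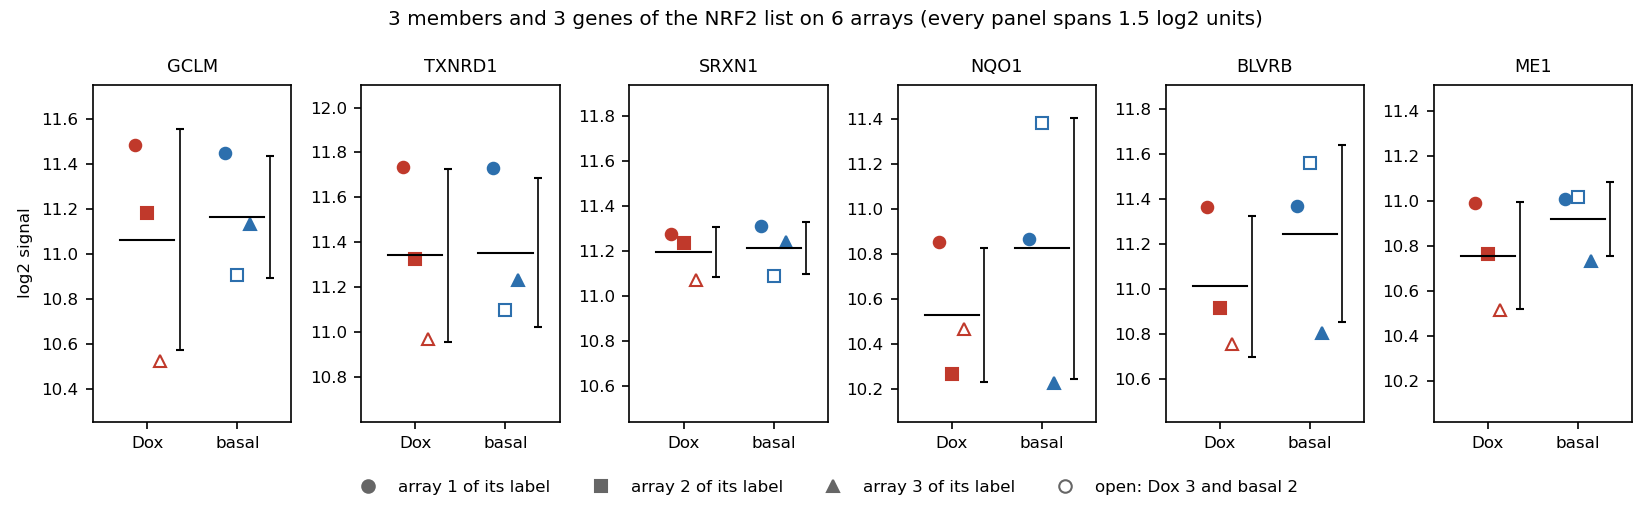
Log2 signal (vertical axis, 1.5 log2 units in every panel) of GCLM, TXNRD1 and SRXN1 and of NQO1, BLVRB and ME1 in the 3 Dox arrays (left) and the 3 basal arrays (right); symbols give the array number, open symbols are Dox 3 and basal 2, and bars are mean and SD. Basal 2 is the highest array for NQO1 (11.38) and BLVRB (11.56) but among the low arrays for GCLM (10.91).

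Around NNT, 12 genes that make or carry mitochondrial NADPH, its precursors and glutathione were listed, and all 12 were measured. Without Dox 1 and basal 3 only GLUD1 passed, the glutamate dehydrogenase of the matrix. GLUD1 read 10.42, 10.94 and 10.81 in Dox 1, 2 and 3, against 10.38, 10.43 and 10.94 in basal 1, 2 and 3. Its difference was 0.47 ± 0.10 without Dox 1 and basal 3 (adjusted p = 0.0142) and -0.07 without Dox 2 and basal 1. The NAD kinase NADK gave 0.42 ± 0.12 (adjusted p = 0.0772), the mitochondrial malic enzyme ME3 0.38 ± 0.12 (adjusted p = 0.109) and the mitochondrial isocitrate dehydrogenase IDH2 -0.30 ± 0.11 (adjusted p = 0.222) without Dox 1 and basal 3.

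Among 14 of 16 other peroxiredoxin, thioredoxin and sestrin genes, 2 passed as higher in Dox without Dox 1 and basal 3. PRDX6, a peroxiredoxin with 1 catalytic cysteine, gave 0.29 ± 0.07 (adjusted p = 0.0399), and SESN1, a sestrin, 0.49 ± 0.13 (adjusted p = 0.0451). The thioredoxin-binding protein TXNIP gave -0.32 ± 0.11 (adjusted p = 0.176) and SESN3 0.43 ± 0.13 (adjusted p = 0.0897). The cytosolic thioredoxin TXN stayed between 12.84 and 13.11 on the 6 arrays.

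Of 23 glutathione genes, 1 passed without Dox 1 and basal 3, a share below that of all genes. MGST1, a membrane-bound glutathione transferase and peroxidase, read 11.84, 11.44 and 10.89 in Dox 1, 2 and 3, against 11.95, 11.22 and 11.46 in basal 1, 2 and 3. Dox 1 and basal 1 were its highest arrays and Dox 3 its lowest, as for GCLM 203925_at. Its difference was -0.42 ± 0.09 (adjusted p = 0.0169), and 0.02 without Dox 2 and basal 1. The cystine importer subunits SLC7A11 and SLC3A2 gave -0.40 ± 0.13 (adjusted p = 0.108) and -0.44 ± 0.13 (adjusted p = 0.0868), and CHAC1, which degrades glutathione, -0.61 ± 0.25 (adjusted p = 0.271). GCLC, the catalytic partner of GCLM, had an adjusted p of 0.775 there. The mean of GCLC in Dox 3 and basal 2 minus that of the 4 others was -0.35 as deposited.

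The 25 selenoprotein genes and factors bear on GPX4, TXNRD1 and TXNRD2, which all contain selenocysteine. Without Dox 1 and basal 3 only SELENOP, the secreted selenium carrier, passed, at 0.53 ± 0.09 (adjusted p = 0.0036), and it differed by -0.02 without Dox 2 and basal 1. SELENOS gave 0.23 ± 0.11 (adjusted p = 0.352), SELENOO 0.31 ± 0.12 (adjusted p = 0.252) and SELENOW -0.24 ± 0.09 (adjusted p = 0.222). Of 14 of 15 listed superoxide and peroxide genes, SOD1, the cytosolic superoxide dismutase, passed at 0.32 ± 0.07 (adjusted p = 0.0169) and MAOA, a monoamine oxidase of the outer mitochondrial membrane, at -0.58 ± 0.14 (adjusted p = 0.0244). POR, the electron donor of microsomal P450 enzymes, gave 0.37 ± 0.10 (adjusted p = 0.0678), and the uncoupling protein UCP2 gave -0.16 ± 0.13 (adjusted p = 0.697).

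The list for the mitochondrial steroidogenic chain held 9 measured genes of 10. STAR, which moves cholesterol to the inner membrane, read 11.53, 11.05 and 10.73 in Dox 1, 2 and 3, against 11.59, 11.27 and 10.97 in basal 1, 2 and 3. Its difference was -0.54 ± 0.09 without Dox 1 and basal 3 (adjusted p = 0.0025) and 0.01 without Dox 2 and basal 1. TSPO, an outer-membrane protein, gave -0.55 ± 0.14 (adjusted p = 0.0418), adrenodoxin, encoded by FDX1, -0.23 ± 0.09 (adjusted p = 0.216) and the side-chain cleavage enzyme CYP11A1 0.30 ± 0.09 (adjusted p = 0.0963). CYP11A1 read 11.90 in Dox 3 and 11.66 in basal 2 and at most 10.91 on the 4 other arrays. Among 9 genes of inherited ACTH resistance, which include NNT and TXNRD2, SGPL1, the sphingosine phosphate lyase, was the other gene besides STAR to pass (0.51 ± 0.10, adjusted p = 0.0108), and the ACTH receptor's accessory protein MRAP gave -0.47 ± 0.15 (adjusted p = 0.115).

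Mitochondrial quality control and repair genes numbered 18 measured of 20. MSRB3, a methionine sulfoxide reductase, read 11.56, 10.89 and 10.61 in Dox 1, 2 and 3, against 11.55, 11.18 and 10.97 in basal 1, 2 and 3. It passed without Dox 1 and basal 3 at -0.62 ± 0.09 (adjusted p = 0.00099) and differed by 0.01 without Dox 2 and basal 1. OXR1, an oxidation resistance factor, gave -0.38 ± 0.10 (adjusted p = 0.0514), the co-chaperonin HSPE1 -0.30 ± 0.08 (adjusted p = 0.0573), and PPARGC1A, a coactivator of mitochondrial biogenesis that lay below the array median on all 6 arrays, -0.51 ± 0.14 (adjusted p = 0.0655). In the same comparison 3 of 14 adrenocortical markers passed, STAR, HSD3B2 (-1.40 ± 0.18, adjusted p = 0.00021) and SULT2A1 (0.68 ± 0.11, adjusted p = 0.0015). CYP17A1 did not pass, at -0.44 ± 0.12 (limma, adjusted p = 0.0719). Of the 7 medullary markers 1 passed, CHGB (-0.75 ± 0.14, adjusted p = 0.0072), while SYP gave 0.41 ± 0.14 (adjusted p = 0.137). Of the 15 stromal, endothelial and blood markers 1 passed, COL3A1 (-1.09 ± 0.21, adjusted p = 0.0057), while DCN gave 0.44 ± 0.15 (adjusted p = 0.136). Their part in the values above was not tested.

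The patterns of NNT and GCLM over the arrays were shared by many genes. Among the 8479 genes whose brightest probe set spanned at least 0.5 log2 units, 732 had a Pearson correlation above 0.95 with NNT 202783_at over the 6 arrays, and 541 with GCLM 203925_at. Those most like NNT were THUMPD3, IMPA1, PIGM, PTGR3 and MTFR1, each at 0.999, and those most like GCLM were CHKB (0.999), STK33, ZBTB38, MCTP2 and MEGF10 (0.998 each). With 6 arrays, of which 4 form near-identical pairs, these correlations are a description of array differences that many genes share.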

How the data were processed

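Total RNA was hybridised to 6 Affymetrix 3′ expression arrays, 3 per label, and whether each array had its own culture was not tested. In the deposited table, the authors give 1 log2 signal for each probe set and array. GCRMA, a method that subtracts background estimated from probe sequence and combines a set's probes into 1 value, is named in the submitters' processing notes, with no version. A joint normalization run of all arrays is not given in the sources used here. No scaling was added to these values, and precision is limited by having 6 arrays.

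Genes were taken from the platform annotation, where 41091 of 54613 probe sets had 1 symbol, 1801 several and 11721 none. All probe sets were fitted with limma 3.58.1 (lmFit, eBayes with a mean-variance trend) in R 4.3.3. The fit was first run on simulated data with independent noise, its size taken from Dox 1 minus basal 1. That simulation held no array set and no near-identical arrays, so it could not show how the fit behaves on these arrays. Adjusted p is from Benjamini-Hochberg over all probe sets with a threshold of 0.05, two-sided, also where single genes of lists are given. For the lists each gene was read from its brightest probe set, taken as the one of highest 6-array mean. Promoters were searched in Python 3.11.15, and figures drawn with matplotlib 3.10.9.

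The members, the lists, the 4-array comparisons and the tests were chosen with earlier results of these data known, so their p-values are not independent evidence. All members were named, and in each list other than the marker lists up to 4 genes with the smallest adjusted p without Dox 1 and basal 3, passing or not. For the marker lists not all of these genes were given. GCLC, TXN, NFE2L2 and KEAP1 were added after their values were seen. Some listed genes and the 3′ to 5′ control probe sets were not analysed here. Alternatives covered scaling, a filter on dim probe sets, the variance trend, blocks, gene tables and single arrays left out.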

Additional observations from a re-analysis of the deposited data

How the results depend on the processing

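On all 6 arrays the count of called probe sets was 0, for the whole array and for the members, under every alternative run except that leaving out basal 3 and Dox 1 with the array set as a block gave 2269 for the whole array and 0 for the members. That 2269 became 0 with no array set block and 0 with the label style as the block. It became 1383 genes in a table of 1 probe set per gene, which tests fewer features. With a filter on dim probe sets, which also tests fewer, 2763 of 27274 probe sets passed. The members' count there became 1 (GCLM) of 20. For the other changes the cause was not tested. Leaving out basal 1 and Dox 2 gave 0 with and without the block; the fit without it was chosen after seeing the data, as were the scalings of the distance of Dox 3 and basal 2. Of 160 recomputed differences of the members' brightest probe sets, 53 equal the reported value by construction, 84 of the 107 others kept their sign and 23 changed it, none of them past the threshold. The NNT difference was -0.028, TXNRD1 0.19 and SRXN1 0.0088 without basal 1 and Dox 2, and PRDX3 was 0.047 without basal 3 and Dox 1. With each array left out in turn, the brightest probe sets ran from -0.13 to 0.15 for NNT, -0.19 to 0.13 for PRDX3, -0.16 to 0.22 for TXN2, -0.019 to 0.075 for TXNRD2, -0.21 to 0.18 for TXNRD1, -0.082 to 0.044 for SRXN1, -0.18 to 0.33 for SOD2, -0.11 to 0.072 for GPX4, -0.31 to 0.17 for GCLM and -0.09 to -0.032 for CAT. No paired analysis was possible because the labels give the arrays no shared replicate numbers, and the near-identical arrays were not fitted as pairs, since they were found from the values. Signals near or below the array median limit the dim probe sets.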
